A study of Mus musculus with 86 samples.

Results

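The CD45-positive and PanCK-positive areas of resting mouse epidermis were compared, using the 16 segments labelled epidermis at 0 h, of 85 tissue segments in the series. Of these, 8 were CD45 segments and 8 were PanCK segments, and each kind came from the same 3 mice (208, 210 and 219). Transcripts were counted by GeoMx digital spatial profiling, in which barcodes are released by light from chosen areas of a tissue section and sequenced. All mice were wild-type C57BL/6 females of 12 to 16 weeks. The study gave a UVB dose of 500 mJ/cm2 (290 to 320 nm) to the shaved back and took biopsies at 0, 6 and 24 h. The comparison at 0 h asks what sets CD45 areas of resting epidermis apart from keratinocytes. Every group below is of this strain, sex and age range, and differs only in staining marker, skin layer and time. Mice 208, 210 and 219 all carry the same scan number in the labels.

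The epidermis is a stratified epithelium made mostly of keratinocytes, whose cytokeratins are stained by PanCK antibodies. CD45 is a surface phosphatase carried by leukocytes. In resting mouse epidermis the leukocytes are chiefly Langerhans cells, which sample antigen between keratinocytes, and dendritic epidermal T cells, which carry a gamma delta T cell receptor and survey keratinocytes for damage. Both cell types send processes between keratinocytes, so that an area chosen by CD45 staining lies among epithelial cells. The deposited files give probe identifiers without gene names, and the tables used here do not pair them with genes. No gene or cell type is therefore named, and the labels CD45 and PanCK could not be checked against marker genes. In segments that pool many cells, fewer cells of a type and less RNA per cell cannot be told apart.

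The CD45 segments held fewer counts than the PanCK segments. Total counts were 16560 at the lowest, 49387 at the median and 106382 at the highest in CD45 segments, against 65161, 125896.5 and 248825 in PanCK segments. Summed by mouse, CD45 areas held 120532, 217912 and 84992 counts in mice 208, 210 and 219, and PanCK areas held 200430, 433425 and 429239. In each mouse the CD45 sum was therefore the smaller. The no template control held 19 counts on 14 probes. The share of counts on 5000 scarce probes, called floor probes here and taken as those that held the smallest mean share of counts in 0 h deep dermis and adipose tissue, was 13.2% ± 0.38 (SD, n = 3) in CD45 areas and 9.91% ± 1.09 in PanCK areas. The part of this depth and floor difference in the results below was not tested.

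Under the main scaling (TMM), many probes separated the areas, in similar numbers in either direction but with different sizes and abundances. Of 4627 probes tested, 360 were called at an adjusted p under 0.05 by edgeR's quasi-likelihood test with the mouse as a block, which is 7.78% of those tested. In CD45 areas 182 were higher (3.93%) and 178 were lower (3.85%). The higher probes differed by a median log2 of 1.82, from 0.85 to 5.88, and the lower probes by a median of -1.28, from -2.66 to -0.55. Over all tested probes the median log2 difference was 0.04. At least 4-fold, 70 probes were higher and 6 were lower. At least 8-fold, 17 were higher and 0 were lower, and 2 of the higher probes passed 16-fold. The direction was shared by 3 of 3 mice in 181 of the 182 higher probes and in 176 of the 178 lower probes, and by 2044 of all 4627 tested probes. The calls were made from these same mice, so nothing is read from these shares.

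**Figure D1:**
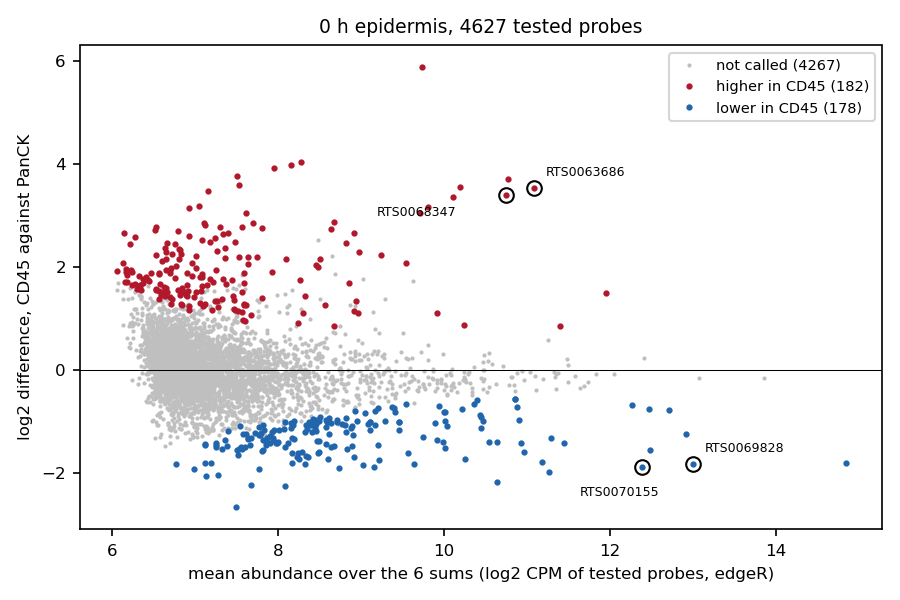
Log2 difference between CD45 and PanCK areas of the 0 h epidermis (vertical axis) against mean abundance (horizontal axis, log2 CPM) for the 4627 tested probes, fitted over 3 mice per marker. Red points are the 182 probes higher in CD45 areas, blue points the 178 lower ones, grey points those not called and black circles the 4 probes followed in the text. With TMM scaling, the red points reach 5.88 and spread over scarce and abundant probes. The blue points go no lower than -2.66 and lie mostly among abundant probes.

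The balance of higher and lower calls depended on the scaling and the filter. When sums were scaled to the floor probes, the median log2 difference of the tested probes shifted by -0.60, and 113 probes were higher and 1079 lower. A shift of this sign makes higher differences smaller and lower ones larger. The greater size of the higher probes is therefore stated for TMM scaling alone. Without a filter 74 of 20175 tested probes were higher and 204 lower. With limma fitted to segment means of log values, 59 and 261 of 4627 were. Without the replicate block 152 were higher and 92 lower. Leaving out mouse 208 gave 292 and 469 of 11588 tested. Leaving out mouse 210 gave 110 and 52 of 3210, and leaving out mouse 219 gave 85 and 56 of 5084. The number tested thus changed along with the number called. Called in the same direction under 12 of the 13 alternatives, all but the omission of a PanCK segment, were 21 higher and 14 lower probes, a list drawn up after the results were seen. With the alternative of DESeq2's test set aside, which had 26 higher and 16 lower calls of 1791 tested, these numbers were 41 and 36.

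Probes called higher in CD45 areas mostly stood at no more than 2 times the floor in PanCK areas. All 182 had a mean level over 2 times the floor mean in CD45 areas, where the floor mean was 26.5 CPM (counts scaled to a fixed total of 1000000 per sum), and 74 of the 182 did so in PanCK areas, where it was 19.8 CPM. Over all 4627 tested probes the median level was 65.9 CPM in CD45 areas and 70.2 CPM in PanCK areas. Most tested probes were therefore over 2 times the floor mean in each area. The filter kept probes partly through the area in which they were high, so the count of 182 in CD45 areas follows in part from it. The level of the 182 in PanCK areas was a median of 30.5% of that in CD45 areas, from 1.73% to 62.8%. By abundance, 97 of the 182 lay above the median of tested probes and 85 below it. Within mice, the median log2 ratio of their levels was 1.62 in mouse 208, 1.57 in mouse 210 and 1.66 in mouse 219. These probes were called from the same 3 mice with the mouse as a block, so the likeness of these medians follows in part from the choice.

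RTS0063686 was the higher probe with the smallest p among those of the same direction in 3 of 3 mice. Its level in CD45 areas was 1618, 2854 and 2177 CPM in mice 208, 210 and 219, and in PanCK areas 175, 228 and 242 CPM. The CD45 areas were higher in each mouse, as the choice required, by 8.98 to 12.5 times. The groups did not overlap, as in 166 of the 182 higher probes and in this direction 366 of all 4627 tested probes. The log2 difference was 3.53 (SE 0.15, adjusted p = 1.1e-08, edgeR). RTS0068347 had 1195, 2015 and 2130 CPM in CD45 areas and 125, 233 and 212 CPM in PanCK areas. Again no mouse overlapped between areas, with ratios of 8.65 to 10.0, and the log2 difference was 3.40 (SE 0.15, adjusted p = 1.1e-08, edgeR). PanCK areas held counts for these probes in every mouse, between 35 and 104 for RTS0063686 and between 25 and 101 for RTS0068347.

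The probe with the greatest difference was nearer to absence in PanCK areas. It had 136, 89 and 138 counts in the CD45 areas of mice 208, 210 and 219, or 1128, 408 and 1624 CPM. In PanCK areas it had 4, 6 and 9 counts, or 13.8 to 21.0 CPM, close to the floor mean there of 19.8 CPM. Its log2 difference was 5.88 (SE 0.27, adjusted p = 1.28e-08, edgeR). This probe was singled out after its values were seen.

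Probes called lower in CD45 areas were mostly abundant, and most stood above 2 times the floor mean in both areas. Of the 178, 176 lay above the median abundance of tested probes and 2 below it. In CD45 areas 146 of the 178 had a mean level over 2 times the floor mean. Most of all tested probes did so too, with a median level of 65.9 CPM there. In PanCK areas such levels follow in part from the filter. The level of the 178 in CD45 areas was a median of 35.8% of that in PanCK areas, from 14.6% to 60.5%. The median log2 ratio within mice was -1.52 in mouse 208, -1.38 in mouse 210 and -1.39 in mouse 219.

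RTS0070155 and RTS0069828 were the lower probes with the smallest p. RTS0070155 had 863, 1074 and 1788 CPM in the CD45 areas of mice 208, 210 and 219 and 4101, 4670 and 6300 CPM in their PanCK areas. The areas did not overlap between mice, as in 170 of the 178 lower probes and in this direction 886 of all 4627 tested probes. The CD45 level was 21.0% to 28.4% of the PanCK level. The log2 difference was -1.87 (SE 0.11, adjusted p = 2.11e-07, edgeR), and -1.51 without the PanCK segment in which this probe was highest. RTS0069828 had 2464, 1491 and 1812 CPM in CD45 areas and 9225, 7092 and 6689 CPM in PanCK areas. Its areas did not overlap either, the CD45 level was 21.0% to 27.1% of the PanCK level, and the log2 difference was -1.83 (SE 0.11, adjusted p = 3.74e-07, edgeR). Both probes thus stood at 863 CPM or more in the CD45 areas of every mouse.

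**Figure D2:**
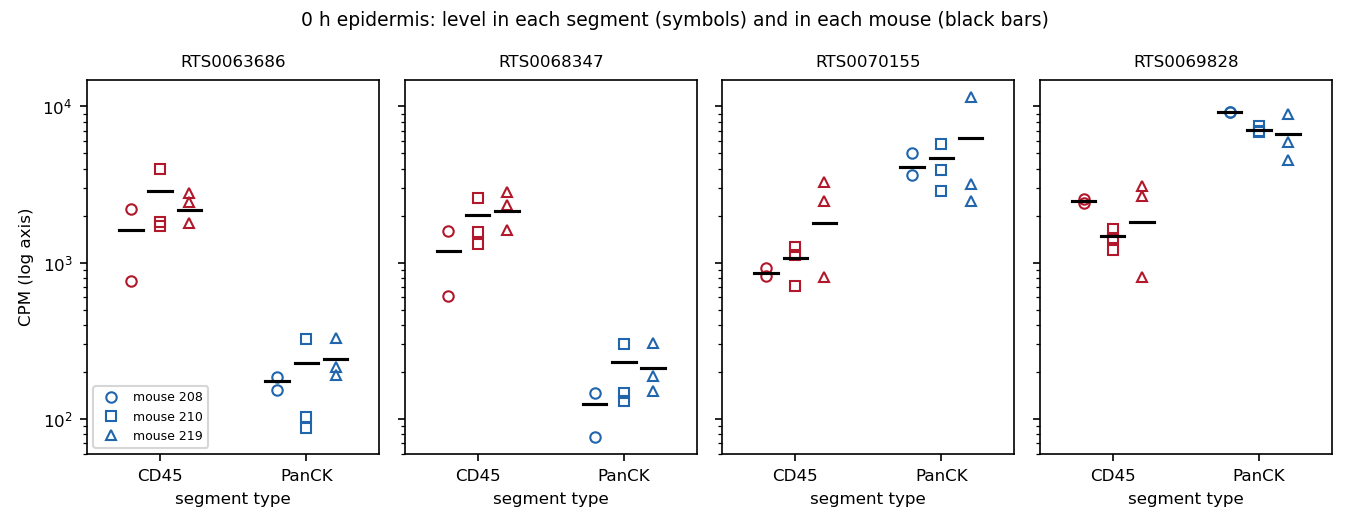
Level in CPM (log axis) of the 4 named probes in each of the 16 segments of the 0 h epidermis, with symbols for the 3 mice and black bars for the level in each mouse's sum. The segments of the 2 areas are apart for RTS0063686, RTS0068347 and RTS0069828, and overlap for RTS0070155, whose highest PanCK segment stood at 11477 CPM.

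Single segments varied more than the sums. RTS0063686 ranged from 758 to 4004 CPM over the 8 CD45 segments, with a median of 2011, and from 87.2 to 329 CPM over the 8 PanCK segments, with a median of 188. RTS0068347 ranged from 615 to 2829 CPM (median 1609) in CD45 segments and from 76.7 to 307 CPM (median 149) in PanCK segments. For both probes every CD45 segment lay above every PanCK segment. RTS0069828 ranged from 814 to 3080 CPM (median 2026) in CD45 segments and from 4535 to 9248 CPM (median 7226) in PanCK segments, without overlap. RTS0070155 ranged from 715 to 3261 CPM (median 1021) in CD45 segments and from 2500 to 11477 CPM (median 3784) in PanCK segments, so that its highest CD45 segment, in mouse 219, exceeded 3 of the 8 PanCK segments. The segments of a mouse share that mouse and were not treated as replicates. The named probes were chosen from the sums of these same segments, so their separation follows in part from the choice.

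The higher probes took a smaller part of all counts than the lower probes took in PanCK areas. The 182 higher probes took 4.41% ± 0.18 (SD, n = 3) of counts in CD45 areas and 1.20% ± 0.065 in PanCK areas. The 178 lower probes took 4.96% ± 0.74 and 13.9% ± 1.55. Over single segments the share on the higher probes was 3.05% to 5.22% in CD45 and 1.07% to 1.34% in PanCK segments, and the share on the lower probes was 3.59% to 6.58% and 10.4% to 16.3%. Neither share overlapped between the areas. The probes were called from these same counts, so these shares describe the size of the difference and test nothing.

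The most abundant probes took a smaller share of counts in CD45 areas. The 100 most abundant probes of each sum took 15.5%, 11.8% and 12.3% of counts in the CD45 areas of mice 208, 210 and 219, against 21.8%, 18.4% and 17.6% in PanCK areas. The difference was -6.08 percentage points (SD 0.706, n = 3), lower in CD45 areas in 3 of 3 mice. An exact two-sided permutation over 3 pairs cannot go below a p of 0.25, so no test was made. The mean share at 0 h was 13.2% in CD45 and 19.3% in PanCK epidermis. It was 11.5% in CD45 and 12.3% in PanCK areas of the deep dermis, and 13.5% in CD45 areas of adipose tissue. PanCK epidermis was thus the highest, and the lower share is not particular to epidermal CD45 areas.

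The other layers of resting skin were used to place these probes. Labelled compartments at 0 h were CD45 and PanCK areas of the epidermis and of the deep dermis, and CD45 areas of adipose tissue. Of the 182 higher probes, 72 had their greatest mean level in CD45 epidermis, 22 in CD45 deep dermis, 81 in adipose, 7 in PanCK deep dermis and 0 in PanCK epidermis. These are 39.6%, 12.1%, 44.5%, 3.85% and 0%, where the shares among all tested probes were 15.1%, 12.4%, 21.0%, 23.0% and 28.5%, so that CD45 deep dermis stood at about its share among all probes. Of the 178 lower probes, 140 were highest in PanCK epidermis, 36 in PanCK deep dermis and 2 in adipose, or 78.7%, 20.2% and 1.12%, with PanCK deep dermis close to its share among all probes. The lists were chosen by the epidermal values, so the low counts in the opposite epidermal area follow from the choice. The high counts in the epidermal area with the greater level follow from it in part as well. Adipose had 1 segment per mouse, with sums of 35243 to 53977 counts, against 84992 to 217912 in CD45 epidermis. The part of this lower depth in the adipose counts was not tested.

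The named probes differed in this placing. RTS0063686 had 2216 ± 619 CPM (SD, n = 3) in CD45 epidermis, 2008 ± 632 in CD45 areas of the deep dermis and 2702 ± 1049 in adipose tissue, and the ranges of these groups overlapped. RTS0068347 had 1780 ± 510, 1401 ± 538 and 2095 ± 652 CPM, also with overlap. In PanCK deep dermis these probes had 77.4 ± 59.9 and 56.8 ± 25.8 CPM. RTS0070155 and RTS0069828 stood at no more than 234 CPM in any mouse in both areas of the deep dermis and in adipose, where their means were 18.6 and 9.46 CPM. The pair higher in CD45 epidermis was therefore high in each CD45 compartment, and the pair lower there was abundant in the epidermis alone among these 5 compartments.

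In the deep dermis, the marker contrast had the same direction for most probes that could be tested. Of the 182 higher probes 72 passed the filter there, 45 were called higher and 0 lower, beside 20.2% of all 818 tested probes called in either direction and 9.54% called higher. Of the 178 lower probes 74 were tested, 34 were called lower and 1 higher, beside 10.6% of all tested probes called lower. The shared calls were 45 of the 73 higher and 34 of the 82 lower calls among probes tested in both layers. Leaving out mouse 210 reduced all deep dermis calls from 78 higher and 87 lower to 46 and 25, and leaving out mouse 219 to 54 and 25. The filter kept probes partly through the area in which they were high, so these counts describe the tested probes and not the lists.

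**Figure D3:**
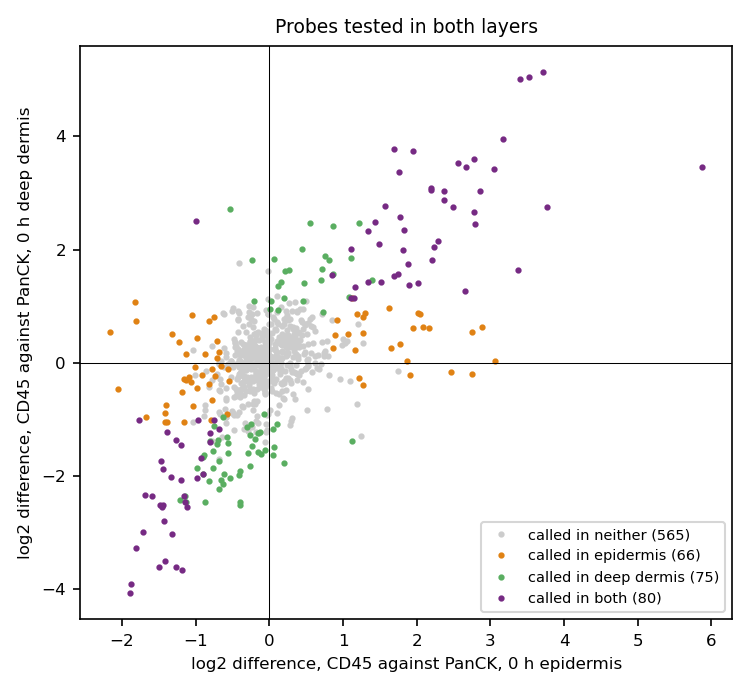
Log2 difference between CD45 and PanCK areas in the 0 h epidermis (horizontal axis) and in the 0 h deep dermis (vertical axis) for the 786 probes tested in both, from separate fits over 3 mice per marker. Points are coloured by the layer in which they were called; 80 were called in both, 79 of them in the same direction.

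Some differences were not of the same size in the layers. The marker difference in the epidermis minus that in the deep dermis was called for 38 of 2555 probes (1.49%), 21 with a higher value in the epidermis (0.822%) and 17 with a lower one (0.665%). Of the 182 higher probes, 136 were tested, with 8 called higher and 1 lower, and of the 178 lower probes 172 were tested, with 6 called higher and 13 lower. Both lists and the named probes were chosen by the epidermal difference, which enters this one. A lean of the lists and named probes in their own direction therefore follows in part from the choice. For RTS0068347 the difference between layers was -1.39 (SE 0.31, adjusted p = 0.0372, edgeR), with 5.01 in the deep dermis beside 3.40 in the epidermis, and rested on 6, 13 and 2 counts in the PanCK areas of the deep dermis. For RTS0063686 it was -1.23 (SE 0.35, adjusted p = 0.102, edgeR), not called, on 9, 21 and 1 counts in those areas. RTS0070155 had -2.55 (SE 0.42, adjusted p = 0.00553, edgeR) and RTS0069828 -2.68 (SE 0.55, adjusted p = 0.0211, edgeR), and each rested on 17 or fewer counts per sum in the deep dermis. No probe was called between layers by edgeR without the replicate block (320 at an unadjusted p under 0.05), by edgeR without mouse 219 (333) or by DESeq2's test (341). Without mouse 210, 2 were higher and 6 lower. With sums scaled to the floor probes, 12 were higher and 44 lower.

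At the later times fewer of these probes could be tested. At 6 h, 63 of the 182 higher probes were tested and 26 were called higher, beside 3.63% of all tested probes called in either direction and 1.97% called higher, and 165 of the 178 lower probes were tested and 29 were called lower, beside 1.66%. No member of either list was called in the opposite direction at 6 h, and leaving out mouse 210 left no calls at that time by edgeR (161 at an unadjusted p under 0.05), where all mice gave 38 higher and 32 lower calls, omission of mouse 208 gave 84 and 75, and omission of mouse 219 gave 94 and 63. At 24 h, 37 of the 182 were tested, 28 were called higher and 1 lower, beside 44.4% of all tested probes called in either direction and 21.1% called higher, and 51 of the 178 were tested and 41 called lower, beside 23.3%. All calls at 24 h, 127 higher and 140 lower, were 54 and 70 without mouse 208 and 61 and 72 without mouse 210. Among probes tested at both times, these were 26 of 35 and 28 of 97 higher calls at 6 and 24 h, and 29 of 32 and 41 of 140 lower calls.

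The share of counts on the higher list in CD45 areas, and on the lower list in PanCK areas, was smaller at the later times. In CD45 epidermis the 182 higher probes took 4.41% ± 0.18 at 0 h, 2.37% ± 0.17 at 6 h and 2.05% ± 0.19 at 24 h (SD, n = 3), with no overlap between 0 h and the later times. In PanCK epidermis they took 1.20% ± 0.065, 1.19% ± 0.12 and 1.11% ± 0.035. The 178 lower probes took 13.9% ± 1.55, 11.5% ± 1.13 and 4.44% ± 0.66 in PanCK epidermis and 4.96% ± 0.74, 5.77% ± 0.13 and 1.32% ± 0.18 in CD45 epidermis. The share on the floor probes was 13.2% ± 0.38 at 0 h and 17.8% ± 0.55 at 24 h in CD45 areas, and 9.91% ± 1.09 and 17.1% ± 0.67 in PanCK areas, and its part in the smaller shares was not tested. Both lists were chosen by the 0 h values.

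**Figure D4:**
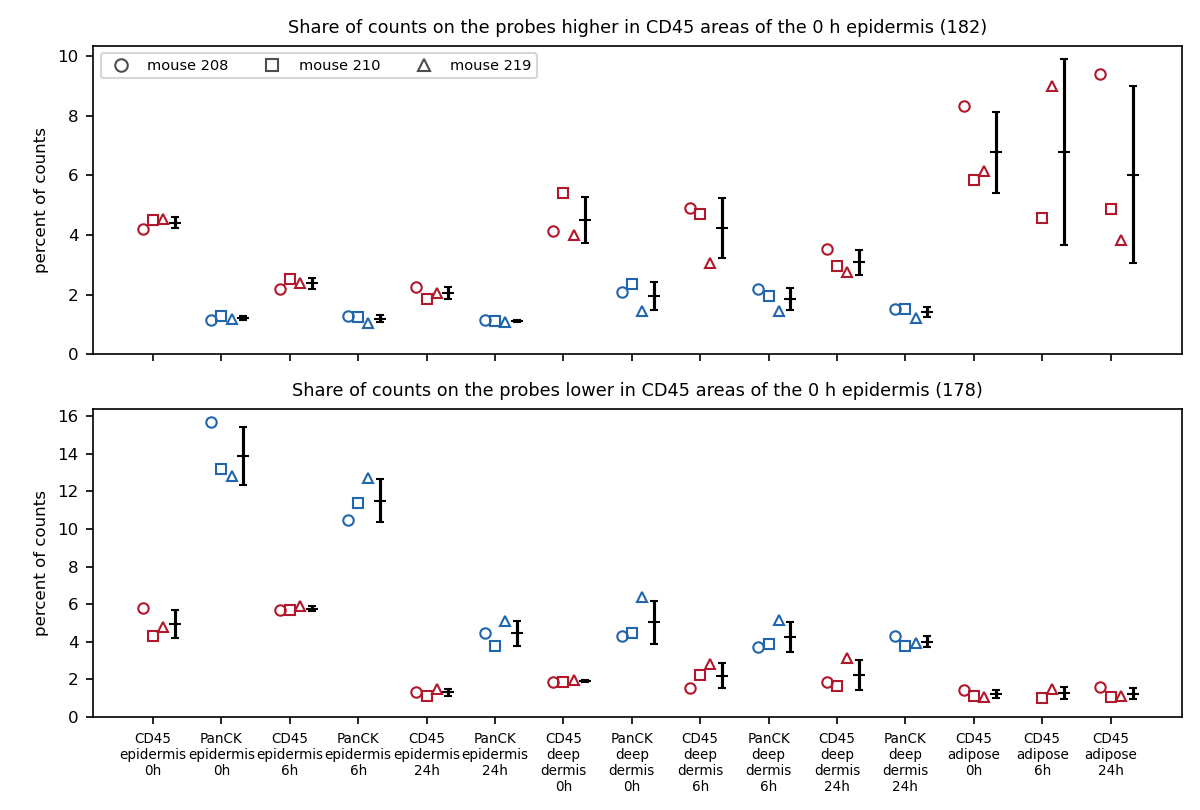
Percent of the counts of each sum on the 182 probes higher (top) and the 178 probes lower (bottom) in CD45 areas of the 0 h epidermis, by marker, layer and time. Symbols are mice, black bars the mean with its SD over mice, red is CD45 and blue is PanCK; in CD45 epidermis the share on the higher probes stands at 4.41% at 0 h and 2.05% at 24 h, and in PanCK epidermis the share on the lower probes stands at 13.9% and 4.44%.

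The marker difference itself was tested between 24 h and 0 h. It was called for 91 of 2341 probes (3.89%), 29 with a higher value at 24 h (1.24%) and 62 with a lower one (2.65%). Of the 182 higher probes 105 were tested, with 1 called higher and 10 lower at 24 h, and of the 178 lower probes 170 were tested, with 6 called higher and 11 lower. Both lists and the named probes were chosen by the 0 h values, which enter this difference. Their counts and values here are therefore partly set by the choice. For RTS0069828 the marker difference was -1.83 at 0 h and -3.24 at 24 h, a change of -1.33 in the joint fit (SE 0.23, adjusted p = 0.00137, edgeR), on levels that were 7669 ± 1363 CPM in PanCK areas at 0 h and 1385 ± 346 at 24 h, against 1922 ± 496 and 158 ± 69.6 in CD45 areas. The change was 0.30 for RTS0070155, -1.16 for RTS0063686 and -1.43 for RTS0068347, with adjusted p-values of 0.732, 0.105 and 0.066 from edgeR. With sums scaled to the floor probes, 86 were higher and 29 lower, and without the replicate block 11 and 18 were called. Leaving out mouse 208, 210 or 219 gave 16 and 26, 8 and 26, and 8 and 12.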

How the data were processed

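The deposited files hold raw counts of each probe in a segment, as whole numbers without normalization. Per the file headers, they were written by GeoMx NGS Pipeline 2.3.3.10. Which probe panel, aligner and genome build served was not given in the sources used here. Segments were captured regions chosen by staining, per the labels' protocols, and 20175 probes were listed.

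For each mouse and marker the segments' counts were added up, with the mouse as the replicate. Sums were fitted in edgeR 4.0.16 (R 4.3.3) with TMM scaling and filterByExpr at a minimum count of 10. The quasi-likelihood F test used 6 sums with the mouse as a block. For a difference between layers or times, 12 sums were used. The block was then each layer of a mouse, or each time of a mouse (the biopsy). A probe is called where its p, adjusted by Benjamini-Hochberg over all tested probes, is under 0.05. Standard errors were derived from the log2 difference and the F statistic. Levels are CPM of the full total of a sum, unlike the TMM-scaled log2 differences. The fits were tested on simulated data with known changes. Apart from these changes, all sums had the same probe profile and a common dispersion, without differences between mice. The simulation therefore cannot speak for the choice of block or scaling.

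The pairing comes from the mouse numbers in the labels. Deviations from the group means correlated between the CD45 and PanCK sums of the same mouse at r = 0.136, 0.0526 and 0.129 (mice 208, 210 and 219), and between mice at -0.133 to 0.0044, over tested probes.

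Named probes are the 2 higher and 2 lower with the smallest p among calls of the same sign in 3 of 3 mice. Members and lists were chosen with earlier results of these data known. Lists of marker genes were not used, since probes are not paired with genes. Alternatives were all 0 h sums in 1 fit, DESeq2's size factors, upper quartile scaling, scaling to the floor probes, no filter, a filter at 2 times the floor, the test of DESeq2 1.42.0, limma 3.58.1 on the mean of log2(CPM + 1) over segments, no block, and omission of each mouse. Omission of 1 PanCK segment was added after seeing the data.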

Additional observations from a re-analysis of the deposited data

Results flagged for a closer look

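In the 8 PanCK segments of the 0 h epidermis, RTS0070155 stood at 11476.9 CPM in segment 2 of mouse 219, far above the other 7, whose highest value was 5719 CPM. This was the only segment that stood apart among 22 sets of segment values tested. Chance sets a value apart in about 1 in 20 groups, but these sets come from the same segments and are not independent. Without that segment 120 probes were higher and 123 lower in CD45 areas, and 243 calls of the 360 were kept in the same direction.

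The difference between CD45 and PanCK areas was itself different in the epidermis and the deep dermis at 0 h for 21 probes with a higher value and 17 with a lower value in the epidermis. Of the named probes, which were chosen by their epidermal difference, RTS0068347 differed by -1.39, RTS0070155 by -2.55 and RTS0069828 by -2.68 on the log2 scale. These calls were absent without the replicate block.

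Between 24 h and 0 h in the epidermis, the marker difference was higher at 24 h for 29 probes and lower for 62. Of the named probes, which were chosen by their 0 h difference, RTS0069828 differed by -1.33 on the log2 scale.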

How the results depend on the processing

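The 4 named probes kept their direction and their call under all 13 alternatives each (52 of 52). These probes were chosen by the smallest p in the same sums, so their constancy follows in part from the choice. Their log2 differences ranged from 2.94 to 3.61 for RTS0063686, 2.82 to 3.54 for RTS0068347, -2.48 to -1.51 for RTS0070155 and -2.44 to -1.64 for RTS0069828, and their adjusted p-values reached at most 0.013. Counts of calls moved more. For CD45 against PanCK at 0 h, higher and lower calls were 113 and 1079 with scaling to the floor probes, 54 and 55 with the filter at 2 times the floor, while DESeq2's test made 26 and 16; higher calls were 74 without a filter, 59 with limma and 120 without the PanCK segment named above. Leaving out 1 mouse gave 85 to 292 higher and 52 to 469 lower calls, of 3210 to 11588 probes tested. The number of probes tested changed with the mouse left out in every comparison.

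When the replicate block was omitted, 92 probes were lower against 178 with it, and the count of higher probes, 152, moved by less than 1.5 times. For the difference between layers the calls without the block were 0 and 0, and for the difference between times 11 and 18.

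Between layers, higher and lower calls were 12 and 44 with scaling to the floor probes, 3 and 1 with limma, 0 and 0 by the DESeq2 test, and 0 to 30 and 0 to 19 with 1 mouse left out. Between times they were 86 and 29 with scaling to the floor probes, 7 and 19 with limma, 0 and 1 by the DESeq2 test (284 with an unadjusted p under 0.05), and 8 to 16 and 12 to 26 with 1 mouse left out; 23 were lower without a filter. With 1 mouse left out, calls were 0 to 94 and 0 to 75 at 6 h, 54 to 133 and 70 to 147 at 24 h, and 46 to 70 and 25 to 76 in the deep dermis. The difference in the share of the most abundant probes was -4.64 points for 20 probes, -6.84 for 500, and -6.47 to -5.79 with 1 mouse left out. The cause of these moves was not tested. Omission of shallow segments was not run, since 0 segments lay under 0.25 of their group's median. Only 3 mice and 2 residual degrees of freedom stood behind the comparison at 0 h, and the CD45 sum held fewer counts in each mouse. The part of depth in the calls of scarce probes was not tested. The p-values rest on the spread between these mice and on a spread that edgeR estimates over all tested probes. For RTS0063686 the adjusted p by edgeR was 1.1e-08 with all mice and 2.89e-92 without mouse 208. The size of such a p-value is therefore no measure of the spread of these mice alone.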
